A study of Homo sapiens with 6 samples.

Results

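The integrated stress response regulators are 10 genes, taken by symbol from tables of 18126 gene symbols: ATF4, ATF3, DDIT3, TRIB3, SESN2, DDIT4, CEBPB, CEBPG, PPP1R15A and EIF2AK3. Each was found in all 6 tables, and 10 of 10 passed the filter for testing, a level of at least 1 FPKM in at least 3 libraries. FPKM is a fragment density corrected for gene length and library size. The libraries came from 786-O cells, a widely used line of human clear cell kidney cancer, as total RNA sequenced on a BGISEQ-500 platform. By the titles, 3 were Control and 3 siTEAD4, a name for an siRNA against TEAD4, the DNA-binding partner of the coactivator YAP. The column headers name a different treatment, as given below. No siRNA sequence, dose or time of treatment was stated, and all libraries share the 1 cell line.

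The integrated stress response joins several kinds of stress at the translation initiation factor eIF2. Kinases that sense heme lack, viral RNA, unfolded protein in the endoplasmic reticulum or amino acid lack each phosphorylate its alpha subunit, which blocks the exchange factor eIF2B and lowers protein synthesis. The ATF4 transcript is then translated better, because upstream reading frames in its leader are bypassed, and ATF4 protein induces genes of amino acid supply together with further regulators. Much of the control of ATF4 therefore acts on translation, which transcript levels do not show.

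The library labels were checked first. TEAD4 measured 12.52, 16.99 and 11.28 FPKM in the Control libraries (replicates 1, 2 and 3, the order kept throughout), against 8.92, 7.65 and 7.52 in the siTEAD4 libraries, which is 59.1% of the Control mean (limma, Benjamini-Hochberg adjusted p = 0.00521). The column headers and the titles name different treatments. The headers read "Tead_Inhibitor" in the 3 libraries labelled siTEAD4 and "Vehicle" in Control 2 and Control 3, so each direction below belongs to the libraries with that title, and the treatment behind it is not settled. The renal transcription factor gene PAX8 lay between 66.52 and 88.54 FPKM and the keratin gene KRT8 between 332.64 and 496.95 FPKM. Other renal markers moved in both directions. In siTEAD4 the cadherin gene CDH6 fell from 155 ± 23.9 to 29.3 ± 1.17 FPKM (limma adjusted p = 3.42e-06) and PAX2 from 7.65 ± 1.56 to 4.06 ± 0.235 (0.00186). EPAS1 rose from 39.0 ± 5.45 to 48.6 ± 0.751 FPKM (limma adjusted p = 0.035). Means in Control and siTEAD4 were 128 and 159 FPKM for KRT18, and 3341 and 3064 FPKM for VIM. The clear cell carcinoma marker CA9 reached no more than 2.25 FPKM. The leukocyte gene PTPRC reached at most 0.42 FPKM, the endothelial gene PECAM1 0.17 and the T cell gene CD3E 0.04. Among the macrophage markers CD68, also a lysosomal gene of many cells, went from 31.7 ± 5.95 to 20.01 ± 1.24 FPKM (limma adjusted p = 0.00442) and CSF1R from 1.81 ± 0.355 to 1.23 ± 0.197 (0.047), while CD14 reached at most 0.49. The fibroblast gene COL1A1 reached 1.27 FPKM, with means of 1.21 in Control and 0.433 in siTEAD4. The part of these markers in the results below was not tested. Control libraries were less alike than siTEAD4 libraries: the coefficient of variation was smaller in siTEAD4 for 8 of the 10 regulators, and Control 2 was the highest Control library for 6 of them and the lowest for 2.

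The motifs of 5 elements linked to stress or to TEAD were searched in the promoters of the regulators. The windows that held an element of the C/EBP and ATF families are shown here. They belong to 3 regulators whose levels rose (below). This choice followed the values, and a link between an element and a rise was not tested. RefSeq's promoter table on GRCh38.p14 matched 10 of 10 regulators with 17 windows, each from 250 bases before to 50 bases after an annotated start. Letters were read on both strands. The C/EBP-ATF element TGATGNAA was found in 2 of the 17 windows, upstream of 1 start each of ATF3 and CEBPG. It occurs in 3.62% of all 35116 windows. The ATF/CREB element TGACGTCA was found in 1 of the 17 windows, that of PPP1R15A, 58 bases before the start, and in 1.85% of all windows. Both elements are in capitals below, 5′ to 3′, in the part of each window that lies upstream and outside annotated exons. The ATF3 sequence is chr1:212565157-212565333 on the plus strand, with its element 191 bases before an upstream start. The CEBPG sequence is chr19:33373896-33374112 on the plus strand, with its element 42 bases before the second start, inside an intron of the longer transcript. The PPP1R15A sequence is chr19:48872171-48872391 on the plus strand.
ATF3: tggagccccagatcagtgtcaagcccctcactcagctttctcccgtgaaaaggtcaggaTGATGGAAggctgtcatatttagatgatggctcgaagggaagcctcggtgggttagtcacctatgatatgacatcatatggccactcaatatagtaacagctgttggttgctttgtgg
CEBPG: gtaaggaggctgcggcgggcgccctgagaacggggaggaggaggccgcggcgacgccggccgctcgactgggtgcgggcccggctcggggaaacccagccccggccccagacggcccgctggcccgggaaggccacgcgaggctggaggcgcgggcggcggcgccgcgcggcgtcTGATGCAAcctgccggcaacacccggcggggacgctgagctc
PPP1R15A: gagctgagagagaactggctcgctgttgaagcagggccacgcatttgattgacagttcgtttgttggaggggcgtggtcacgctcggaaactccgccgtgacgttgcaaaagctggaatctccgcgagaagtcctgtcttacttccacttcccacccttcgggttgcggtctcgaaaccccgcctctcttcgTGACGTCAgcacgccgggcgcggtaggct
The windows of ATF4, DDIT3, SESN2, DDIT4 and EIF2AK3 held none of the 5 motifs, which says only that these letters are not in these windows. The antioxidant response core TGACNNNGC matched in 5 of the 17 windows, of PPP1R15A, TRIB3 and CEBPB, against 13.3% of all windows. Its TRIB3 matches are the same place in overlapping windows. In PPP1R15A the core matched at 2 places, neither of them overlapping the ATF/CREB element. The TEAD element GGAATG matched in 1 of the 17 windows, in CEBPG across the second start, against 14.0% of all windows. The ER stress element matched in no regulator, against 0.0769%. Matches are descriptions of letters and are not shown to be bound.

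Of the 10 regulators, 5 rose and 2 fell in siTEAD4, while ATF4 itself did not pass. In bulk RNA, fewer cells with a transcript and less of it per cell cannot be told apart. PPP1R15A, ATF3, DDIT3, CEBPG and TRIB3 rose, and EIF2AK3 and CEBPB fell. ATF4, DDIT4 and SESN2 did not pass. Calls are from limma on log2(FPKM + 1), fitted over all 11411 genes tested, at a Benjamini-Hochberg adjusted p under 0.05. The background was high: 26.1% of all genes tested passed as higher and 18.8% as lower, 44.9% in either direction. The count of 5 higher is therefore above that share and the count of 2 lower is near it, and no test was made of the list. The median log2 fold change of the regulators was 0.23, beside 0.09 for all genes tested. The groups did not overlap in 7 of the 10, where 57.7% of all genes tested had groups that did not overlap. Without Control 3 or any 1 siTEAD4 library, CEBPB no longer passed and 1 regulator fell. Over all genes the 2982 higher calls became 1801 to 1870 without any 1 siTEAD4 library. They became 3432 without Control 1, 4034 without Control 2 and 2100 without Control 3. With trends in transcript length and GC content taken out they were 3736 of 11156 genes. The shares of all genes given below are those of the main analysis.

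**Figure D1:**
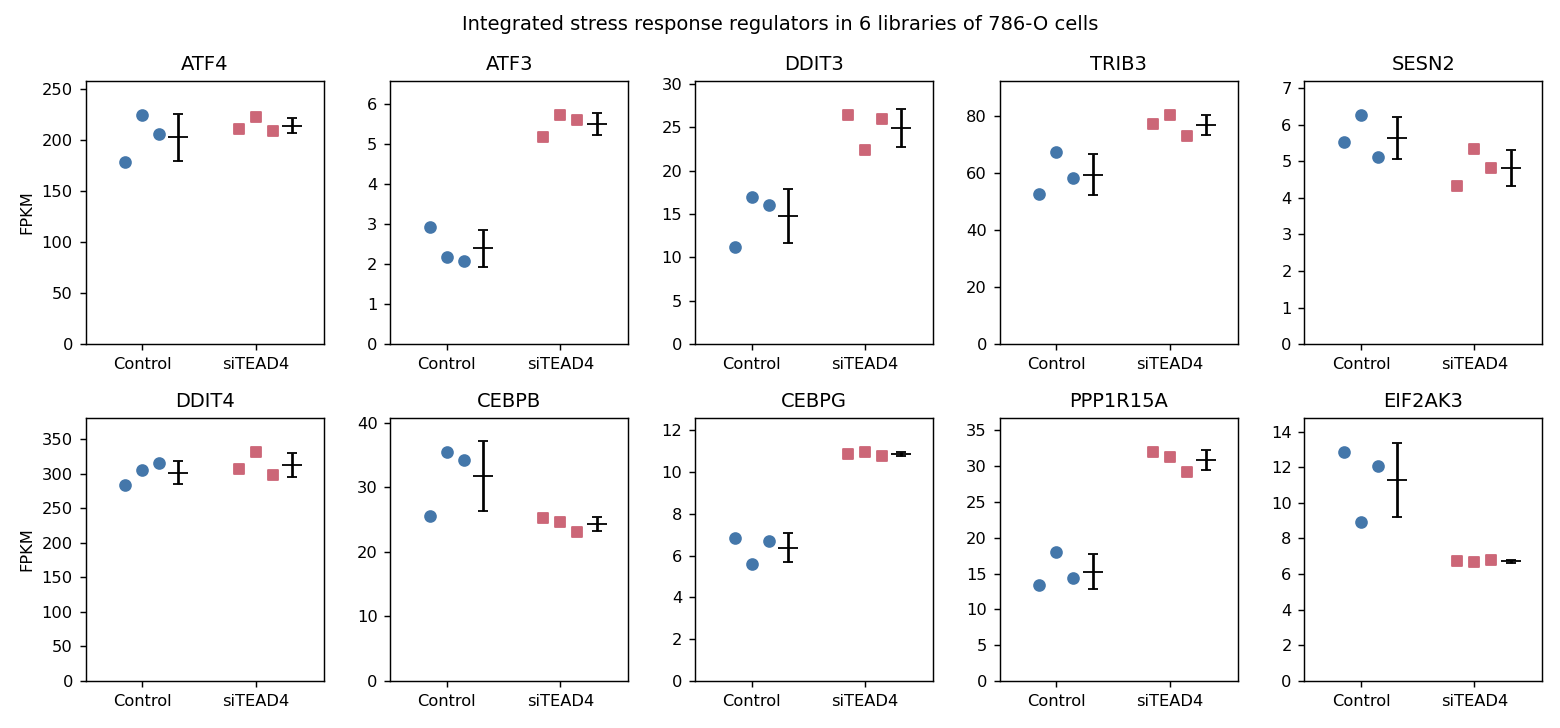
FPKM of the 10 regulators (y axes, each from 0) in the 3 Control libraries (circles) and the 3 siTEAD4 libraries (squares), in the order of replicates 1 to 3, with the mean and SD of each group (bars). The groups are apart in ATF3, DDIT3, TRIB3, CEBPB, CEBPG, PPP1R15A and EIF2AK3, only just in CEBPB, and overlap in ATF4, SESN2 and DDIT4.

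ATF4 encodes the bZIP transcription factor at the centre of the response (chromosome 22, 39519695 to 39522685, plus strand; here and below GENCODE on GRCh38). Its transcript measured 178.26, 223.98 and 205.57 FPKM in the Control libraries, against 210.9, 221.96 and 208.43 in the siTEAD4 libraries. All 3 siTEAD4 values lie within the range of the Control libraries. The log2 fold change was 0.08, with a 95% interval of -0.14 to 0.30 (adjusted p = 0.511). Without Control 1 the value was -0.01. Both group means lay above 97.3% of the genes tested, so the transcript was abundant in either condition. The annotation holds 4 processed ATF4 pseudogenes, not listed in the tables, and how reads shared with them were counted is not stated.

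DDIT3 (chromosome 12, 57516588 to 57521737, minus strand) encodes CHOP, a bZIP factor induced by ATF4 and linked to cell death under lasting stress. It measured 11.24, 16.95 and 16.08 FPKM in the Control libraries, against 26.36, 22.36 and 25.98 in the siTEAD4 libraries. Every siTEAD4 library was above every Control library. The group means of 14.8 ± 3.08 and 24.9 ± 2.21 FPKM (SD, 3 libraries each) gave a log2 fold change of 0.73 ± 0.146 (SE, limma adjusted p = 0.0039). Exons of DDIT3 overlap those of AC022506.1 on the same strand and of MARS1 and MBD6 on the other, and whether strand was used in counting is not given. MARS1, a methionyl-tRNA synthetase gene, went from 45.6 ± 2.32 to 72.4 ± 0.685 FPKM and MBD6 from 6.44 ± 1.07 to 4.62 ± 0.0503 FPKM. Both were looked up after the DDIT3 value had been seen, and the part of shared reads in the DDIT3 value was not tested.

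ATF3 (chromosome 1, 212565334 to 212620777, plus strand), a bZIP repressor and activator that many stresses induce early, was the lowest of the regulators in Control. It measured 2.92, 2.18 and 2.09 FPKM in the Control libraries, against 5.19, 5.72 and 5.6 in the siTEAD4 libraries. The lowest siTEAD4 library was well above the highest Control library, and the mean was 2.30-fold that of Control. The log2 fold change was 0.94 ± 0.111 (SE, limma adjusted p = 0.00026), exceeded by 131 of the genes tested. At this low level the added pseudocount matters: the log2 fold change was 1.18 with a pseudocount of 0.1 and 0.51 with one of 5, and ATF3 passed with either.

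The C/EBP genes moved apart. CEBPG (chromosome 19, 33373330 to 33382686, plus strand) encodes a short bZIP protein that pairs with ATF4 and other C/EBP factors. It measured 6.85, 5.6 and 6.7 FPKM in the Control libraries, against 10.88, 10.95 and 10.76 in the siTEAD4 libraries, where the 3 libraries were nearly equal and all above Control. Its log2 fold change was 0.69 ± 0.0942 (SE, limma adjusted p = 0.000564). CEBPB (chromosome 20, 50190734 to 50192689, plus strand) encodes an activator of acute phase, fat cell and stress genes that also pairs with ATF4. It measured 25.62, 35.48 and 34.28 FPKM in the Control libraries, against 25.26, 24.66 and 23.07 in the siTEAD4 libraries. Control 1 lay just above the siTEAD4 libraries and the other Control libraries far above them. The log2 fold change was -0.36 ± 0.123 (SE, limma adjusted p = 0.0402), and it was no longer called when Control 3 or any siTEAD4 library was left out (adjusted p of 0.0874 to 0.144) and with no filter (0.074). The range over all alternatives was 0.000946 to 0.144. CEBPD, a paralog of CEBPB and also an acute phase regulator, also fell, from 83.1 ± 12.8 to 29.2 ± 1.61 FPKM (log2 fold change -1.47, adjusted p = 3.16e-05). CEBPA was too low to be tested (0.293 ± 0.0379 against 0.327 ± 0.0513 FPKM). CEBPB overlaps the antisense gene CEBPB-AS1, which has no row in the tables.

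Ratios within a library do not depend on its total, and 6 were computed after the values had been seen. The ratio of CEBPB to CEBPG in FPKM was 3.74, 6.34 and 5.12 in the Control libraries, against 2.32, 2.25 and 2.14 in the siTEAD4 libraries. That of DDIT3 to ATF4 was 0.0631, 0.0757 and 0.0782 in the Control libraries, against 0.125, 0.101 and 0.125 in the siTEAD4 libraries. In each of these ratios the groups did not overlap, as in ATF3 to ATF4, EIF2AK4 to EIF2AK3 and DDIT4 to SESN2. The last was only just apart, at 61.6 in Control 3 and 62.0 in siTEAD4 3. An exact two-sided permutation test gave p = 0.1 for these 5 ratios, the smallest that 3 against 3 libraries allow. After Benjamini-Hochberg adjustment over the 6 ratios the value was 0.12. The remaining ratio, PPP1R15A to PPP1R15B, had a Control 2 value of 1.42 inside the siTEAD4 range of 1.27 to 1.48 (exact p = 0.3, also 0.3 adjusted). Among single genes tested, 57.7% had groups that did not overlap. Because the pairs were chosen with the values known, neither the separation nor these p-values are evidence of a difference.

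**Figure D2:**
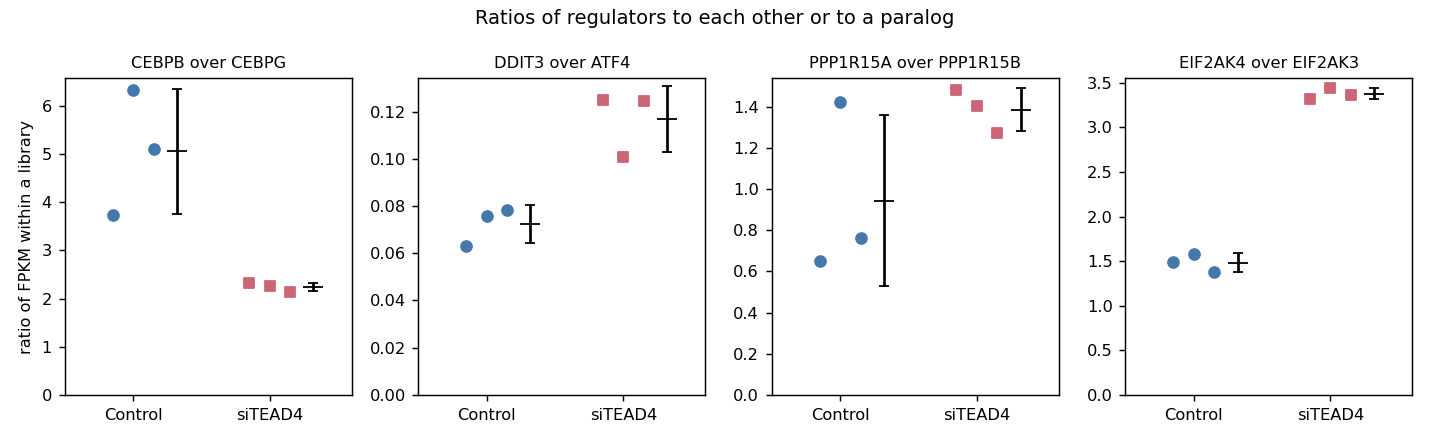
Ratios of FPKM within each library (y axes, from 0) for 4 pairs of genes, 2 of them of 2 regulators and 2 of a regulator with a paralog, in 3 Control (circles) and 3 siTEAD4 libraries (squares), with the mean and SD of each group (bars). CEBPB over CEBPG is lower in all siTEAD4 libraries, DDIT3 over ATF4 and EIF2AK4 over EIF2AK3 are higher in all of them, and for PPP1R15A over PPP1R15B Control 2 lies among the siTEAD4 libraries.

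TRIB3 (chromosome 20, 362835 to 397559, plus strand) encodes a pseudokinase that ATF4 and CHOP induce and that binds ATF4 and AKT. It measured 52.66, 67.1 and 58.29 FPKM in the Control libraries, against 77.14, 80.07 and 72.93 in the siTEAD4 libraries, with no overlap. The rise was modest, 1.29-fold between the means, with a log2 fold change of 0.37 ± 0.0991 (SE, limma adjusted p = 0.0155). It did not pass under rescaling to a common median (0.30, adjusted p = 0.0566), nor without Control 3, siTEAD4 1 or siTEAD4 2 (0.0581 to 0.0723), in a range of 5.06e-05 to 0.0723 over all alternatives. Of its paralogs, TRIB1 rose from 10.1 ± 0.668 to 12.3 ± 0.131 FPKM (0.26, adjusted p = 0.0306) and TRIB2 did not pass (-0.19, adjusted p = 0.172). The TRIB1 call was lost under each of the 3 rescalings, with the replicate block, and when Control 3 or one of the siTEAD4 libraries was dropped (adjusted p of 0.0567 to 0.109), and TRIB2 passed without Control 2 (-0.29, adjusted p = 0.0125).

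SESN2 and DDIT4 encode stress-induced inhibitors of the growth kinase complex mTORC1, SESN2 as a leucine sensor and DDIT4 through the TSC complex. DDIT4 (chromosome 10, 72273920 to 72276036, plus strand, with the antisense gene DDIT4-AS1 across it) measured 283.43, 305.4 and 315.27 FPKM in the Control libraries, against 306.89, 331.05 and 297.72 in the siTEAD4 libraries. It was the most abundant regulator in either group, and the groups overlapped. Its log2 fold change was 0.05 with a 95% interval of -0.14 to 0.24 (adjusted p = 0.655), and its sign turned after rescaling to one median (-0.02) or TMM-like scaling (-0.03). SESN2 (chromosome 1, 28259527 to 28282491, plus strand) measured 5.51, 6.25 and 5.12 FPKM in the Control libraries, against 4.33, 5.32 and 4.8 in the siTEAD4 libraries, with siTEAD4 2 inside the Control range. Its log2 fold change was -0.19, with an interval of -0.43 to 0.05 (adjusted p = 0.171), and it passed in none of the 17 alternatives (adjusted p from 0.0814 to 0.462). SESN1 did not pass (0.21, adjusted p = 0.122), although it did under quantile normalization (0.30, adjusted p = 0.0279). SESN3 reached at most 0.17 FPKM and DDIT4L, the paralog of DDIT4, at most 0.07 FPKM.

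PPP1R15A (chromosome 19, 48872392 to 48876057, plus strand) encodes GADD34, which brings the phosphatase PP1 to eIF2 and so ends the translational block. It had the largest log2 fold change of the regulators with a pseudocount of 1, close to that of ATF3. ATF3 had the larger one with a pseudocount of 0.1, with quantile normalization, without Control 1 and without siTEAD4 1, and the larger ratio of means. PPP1R15A measured 13.44, 18.01 and 14.38 FPKM in the Control libraries, against 31.96, 31.32 and 29.21 in the siTEAD4 libraries. The lowest siTEAD4 library was far above the highest Control library, and the means of 15.3 ± 2.41 and 30.8 ± 1.44 FPKM (SD, n = 3 each) differed 2.02-fold. The log2 fold change was 0.98 ± 0.111 (SE, limma adjusted p = 0.000216), and 115 of the genes tested rose by more. PPP1R15B, the constitutive counterpart, had a log2 fold change of 0.37 and did not pass (adjusted p = 0.0847). It passed without Control 1 (0.50, adjusted p = 0.0169), with the replicate block (0.0394) and with length and GC trends taken out, a setting added once the values were known (0.0203). The catalytic PP1 genes PPP1CA, PPP1CB and PPP1CC did not pass (log2 fold changes 0.05, 0.05 and 0.15), so 1 of 5 genes of the phosphatase rose, a share of 20% beside 26.1% of all genes tested. It was 2 of 5 without Control 1, without Control 2, with the replicate block and with length and GC trends taken out. All genes called higher then numbered, in that order, 3432, 4034 and 3015 of 11411 and 3736 of 11156, against 2982 in the main analysis.

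EIF2AK3 (chromosome 2, 88556741 to 88627576, minus strand) encodes PERK, the eIF2 kinase of the endoplasmic reticulum membrane. It measured 12.85, 8.92 and 12.08 FPKM in the Control libraries, against 6.71, 6.65 and 6.78 in the siTEAD4 libraries. The siTEAD4 libraries were nearly equal and all below the lowest Control library, and their mean was 59.5% of that of Control. The log2 fold change was -0.66 ± 0.127 (SE, limma adjusted p = 0.00335). The amino acid sensing kinase gene EIF2AK4, which encodes GCN2, moved the other way, from 16.6 ± 2.57 to 22.7 ± 0.327 FPKM (0.44, adjusted p = 0.0118). EIF2AK1, the heme-regulated kinase and the most abundant of the 4, did not pass (0.09, adjusted p = 0.351). EIF2AK2, the kinase of double-stranded RNA, did not pass (0.22, adjusted p = 0.199). It passed without Control 1 (0.36, adjusted p = 0.0153) and with the length and GC trends removed (0.18, adjusted p = 0.0238). Of the 4 kinase genes, 1 rose and 1 fell, 25% each, near the 26.1% and 18.8% of all genes tested. Where EIF2AK2 passed, 2 of the 4 rose. All genes called higher then numbered 3432 of 11411 without Control 1 and 3736 of 11156 with the trends removed, against 2982. EIF2AK3 overlaps 2 antisense genes on the other strand, AC062029.1 and AC104134.1.

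**Figure D3:**
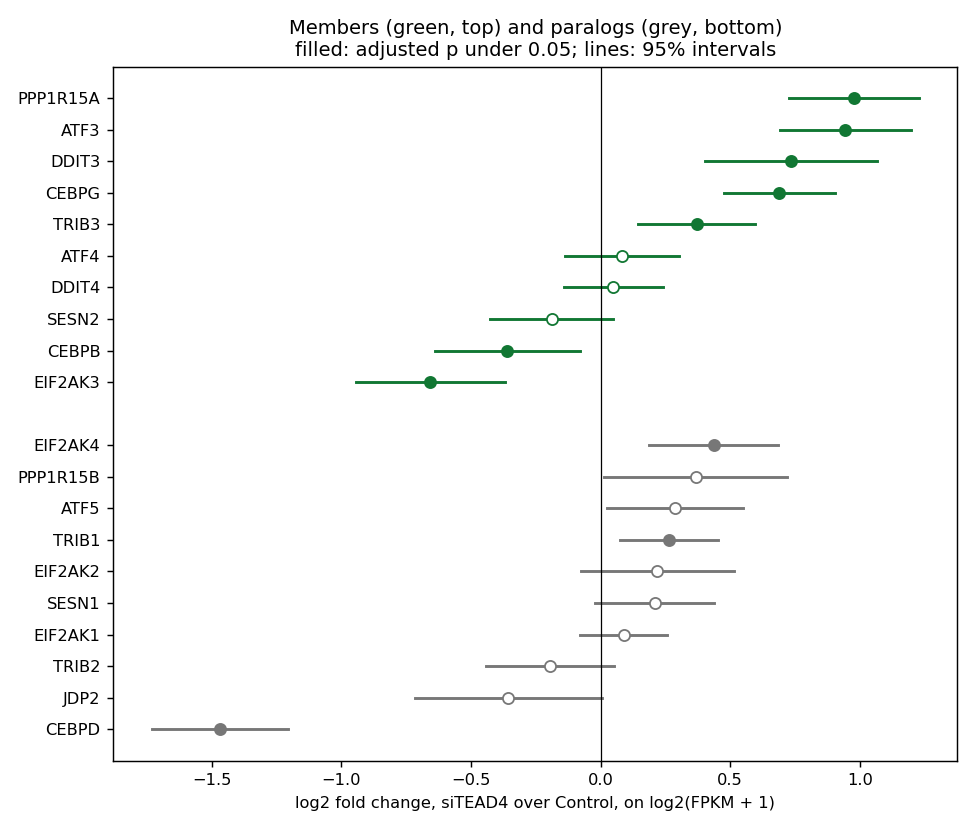
Log2 fold changes of siTEAD4 over Control on log2(FPKM + 1) (x axis) with 95% limma intervals (lines), for the 10 regulators (green) and for 10 of their paralogs that were tested (grey); filled points passed an adjusted p of 0.05. PPP1R15A, ATF3, DDIT3, CEBPG and TRIB3 lie to the right of 0 and CEBPB and EIF2AK3 to the left, and CEBPD lies farthest left.

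The remaining paralogs did not pass. ATF5, a bZIP factor under similar translational control, went from 6.60 ± 1.14 to 8.21 ± 0.293 FPKM (0.29, adjusted p = 0.071), and passed without Control 2 (0.40, adjusted p = 0.00143) and with the length and GC trends removed (0.000845). JDP2, a bZIP repressor related to ATF3, went from 5.19 ± 0.976 to 3.86 ± 0.887 FPKM (-0.36, adjusted p = 0.0975), and passed with the replicate block (0.0476). BATF3 reached at most 0.34 FPKM. Over the 10 paralogs tested, 2 rose and 1 fell, shares of 20% and 10% that lie below the 26.1% and 18.8% of all genes tested. After removal of the trends with length and GC content 5 rose, and without Control 1 it was 4. Only 1 rose without Control 3 or any 1 siTEAD4 library and after rescaling to one median or TMM-like scaling. All genes called higher moved the same way from 2982 in the main analysis. They numbered 3736 of 11156 with the trends removed, 3432 of 11411 without Control 1 and 2100 without Control 3. Without Control 2, and with the replicate block, 2 fell.

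FPKM is per length, so levels of different genes can be set side by side, but only roughly. The part of GC content, shared reads and the unstated counting method in these levels was not tested. In Control the order was DDIT4, ATF4, TRIB3, CEBPB, PPP1R15A, DDIT3, EIF2AK3, CEBPG, SESN2 and ATF3, with means from 301.4 down to 2.40 FPKM. PPP1R15A and DDIT3 overlapped, as did DDIT3 and EIF2AK3, and CEBPG and SESN2; the other neighbours did not. In siTEAD4 PPP1R15A and DDIT3 stood above CEBPB, and CEBPG above EIF2AK3, with overlaps only between DDIT3 and CEBPB and between ATF3 and SESN2. Among the genes tested, PPP1R15A went from above 58.3% of them to above 76.7%, and EIF2AK3 from above 48.6% to above 31.3%.

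The substrate of the kinases and its exchange factor showed rises in 4 of 8 subunit genes and falls in 0 by limma (6 and 0 at an unadjusted p under 0.05). These are 50% and 0%, beside 26.1% and 18.8% of all genes tested. EIF2S1, which encodes the phosphorylated alpha subunit, went from 33.2 ± 2.94 to 54.1 ± 2.47 FPKM (0.69, adjusted p = 0.000406). EIF2S2 (0.50), EIF2B3 (0.58) and EIF2B4 (0.57) also rose, by log2 fold changes with adjusted p from 0.000712 to 0.00129. EIF2S3, EIF2B1, EIF2B2 and EIF2B5 did not pass, with log2 fold changes of 0.13 to 0.24. The median of the 8 was 0.37. Without Control 2, 7 of them rose, where 4034 of all 11411 genes tested were called higher, against 2982 in the main analysis.

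Most genes that ATF4 is known to induce rose, although some of them fell. Of 37 tested in a list of 40, 26 rose (70.3%) and 6 fell (16.2%), beside 26.1% and 18.8% of all genes tested, and the median log2 fold change was 0.50. Over the alternatives 20 to 28 rose and 4 to 7 fell. The list was written with earlier results of these data known, and 2 of its genes are also among the paralogs. The largest changes were in SQSTM1, the autophagy receptor p62, from 129 ± 13.3 to 468 ± 16.2 FPKM (1.86), and in ASNS, asparagine synthetase (1.85). PSAT1, an enzyme of serine synthesis (1.49), and WARS1, a tryptophanyl-tRNA synthetase (1.29), followed, and the adjusted p values of the 4 lay between 1.7e-06 and 1.4e-05. SQSTM1 is also a target of the oxidative stress factor NRF2, so the list is not specific to ATF4. The 6 that fell were the amino acid transporter genes SLC7A1 (-0.74), SLC38A2 (-0.57), SLC1A4 (-0.33) and SLC7A5 (-0.27), the phosphoserine phosphatase gene PSPH (-0.33) and the lipoprotein receptor gene VLDLR (-0.53), named after their values were seen. SLC7A5 lost its call when any siTEAD4 library was dropped (adjusted p of 0.0809 to 0.121) and with the length and GC trends removed (0.065), and SLC1A4 did so without siTEAD4 2 (0.0532). PHGDH, SLC6A9 and FGF21 were below the filter.

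**Figure D4:**
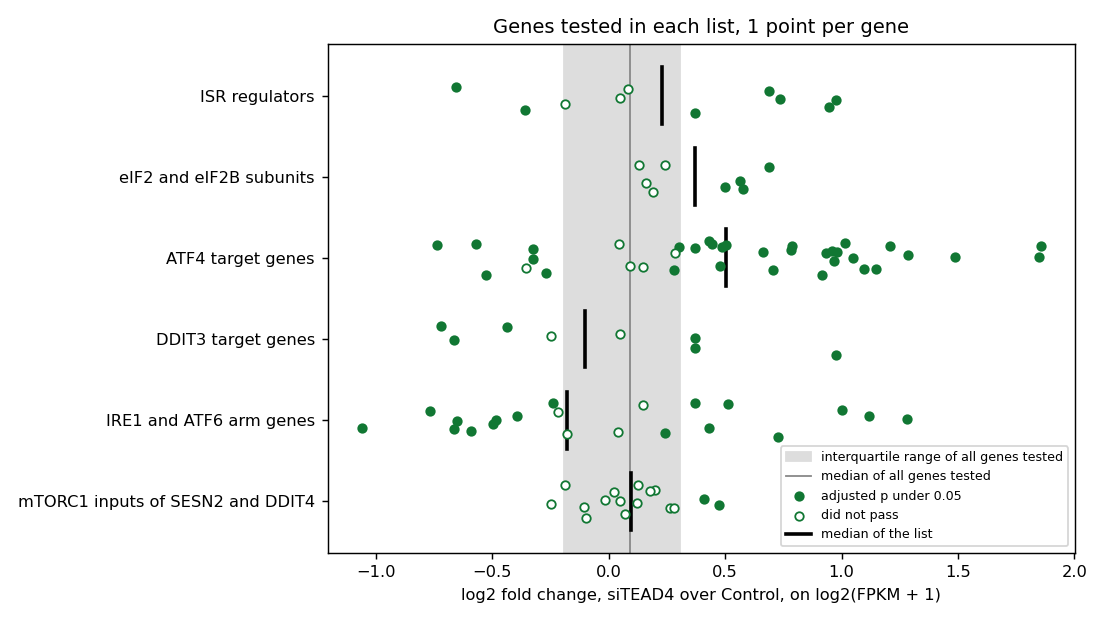
Log2 fold changes of siTEAD4 over Control on log2(FPKM + 1) (x axis) for the genes tested in 6 lists (rows), with 1 point per gene, filled where the adjusted p was under 0.05, and a bar at each list's median; the grey band is the interquartile range of all genes tested. The median of the ATF4 target genes, 0.50, lies to the right of the band, and the regulators are spread over both sides of it.

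Genes attributed to CHOP moved both ways. Of 8 tested, 3 rose and 3 fell, 37.5% each, beside 26.1% and 18.8% of all genes tested, with a median of -0.10. The risers were PPP1R15A and TRIB3, already described, and CHAC1, a glutathione-degrading enzyme (0.37, adjusted p = 0.0327). The genes that fell were BCL2L11, which encodes the death-promoting protein BIM (-0.72), ERO1A, an oxidase of the endoplasmic reticulum (-0.66), and BBC3, which encodes PUMA (-0.44, adjusted p = 0.0253). The death receptor gene TNFRSF10B (0.05, adjusted p = 0.708) and BCL2 (-0.25, adjusted p = 0.0741) did not pass. The list was not split by whether CHOP induces or represses a gene, so its counts and median carry no expected direction. Only 1 of the 8 rose without Control 3, siTEAD4 1 or siTEAD4 2 and after rescaling to one median. All genes called higher were also fewer there, in that order 2100, 1801, 1870 and 2172, against 2982 in the main analysis. The call of BBC3 ended without Control 3, siTEAD4 2 or siTEAD4 3 (adjusted p from 0.0864 to 0.0934) and with no filter (0.0601).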

How the data were processed

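The authors deposited, for each library, a table of FPKM values by gene symbol with 2 decimals, and 5 of the 6 value columns name that unit, per the file headers. The column of Control 1 repeats the symbol header, and it was read as FPKM on the match of its symbols and range to the rest. The submitters' processing notes name GRCh38; no aligner, counting tool, annotation or strand setting is given in the sources used here. Groups came from the sample titles. Low values did not fall on steps of single reads (16.2% of 2175 ratios within 0.1 of a whole number, beside 20% for an even spread), so depth is unknown and no counting interval is given. At most 0.684% of genes tested had equal values in any pair of libraries. Separate cultures are not stated for libraries of a group, so p-values cover the spread between libraries, which may be technical.

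Genes that reached 1 FPKM in 3 or more libraries were fitted as log2(FPKM + 1) with limma 3.58.1 in R 4.3.3 (eBayes with trend, group as the only term). P-values were Benjamini-Hochberg adjusted across every gene tested, with calls under 0.05. Fold changes on this scale understate the change of low genes. The regulators and the gene lists were chosen with earlier results of these data known. Genes named were the regulators, TEAD4, the paralogs and up to 4 called genes with the largest change per other list, with exceptions stated. Coordinates and overlaps came from GENCODE on GRCh38 and promoters from RefSeq. Alternatives were leaving out each library, a replicate block, 3 rescalings, 2 filters, 2 pseudocounts, 2 variance models and a stricter threshold. Removing trends with length and GC content of transcripts was an alternative added with the results known.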

Additional observations from a re-analysis of the deposited data

How the results depend on the processing

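The rises of PPP1R15A, ATF3, DDIT3 and CEBPG and the fall of EIF2AK3 passed in each of the 17 alternatives run per gene. TRIB3 passed in 13 of 17 and CEBPB in 12 of 17, as given beside them. The sign of ATF4, which did not pass, turned to -0.0060 without Control 1 (range -0.0060 to 0.158 without 1 library), and that of DDIT4 to -0.0247 with rescaling to a common median and to -0.0323 with TMM-like scaling. The number of regulators that fell was 1 with no filter (the cause was not tested) and 1 at an adjusted p under 0.01, and it was 1 to 2 without 1 library. The number that rose was 4 to 5 without 1 library, 4 at an adjusted p under 0.01 and 4 after rescaling to one median. Over all genes, 1601 were higher at an adjusted p under 0.01, and without 1 library 1801 to 4034 were higher and 1614 to 2655 lower. The TEAD4 fall passed in every alternative. Higher genes made up 58.2% of all calls in the main analysis, 46.9% under a common median and 45.3% under TMM-like scaling, which moved the median log2 fold change of all genes from 0.09 to 0.02. Whether equal replicate numbers pair the libraries was not settled. Their deviations from the group means correlated at -0.16, 0.27 and 0.09 for numbers 1, 2 and 3. Control 2 and siTEAD4 2 correlated best with each other, but not every library did so with its own number. Deviations within a group are tied to each other, so these correlations cannot decide it. With the replicate block, 5 regulators rose and 2 fell, and 5180 genes were called instead of 5123, of which 3015 were higher and 2165 lower; TEAD4 kept its call. The tables give FPKM without counts, so precision at low levels, as for ATF3, cannot be stated.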

Other observations

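Genes of the other arms of the unfolded protein response, which act beside PERK through IRE1 and ATF6, moved in both directions. Of 21 tested, 8 rose (38.1%) and 9 fell (42.9%), beside 26.1% higher and 18.8% lower of all genes tested, with a median log2 fold change of -0.18. The secreted or lumenal factors SDF2L1 (1.28), CRELD2 (1.12) and MANF (1.00) rose. SEL1L, a part of the machinery that removes misfolded proteins, fell (-1.06, adjusted p = 0.00532). Named after their values were seen, ATF6 (-0.50), ATF6B (-0.59), MBTPS1 (-0.67), MBTPS2 (-0.77) and HSP90B1 (-0.65) also passed as lower. HSPA5 (0.43) and XBP1 (0.24) passed as higher. SDF2L1 measured 28.82, 35.33 and 33.84 FPKM in the Control libraries, against 87.14, 83.88 and 71.36 in the siTEAD4 libraries. SEL1L measured 30.33, 14.51 and 26.86 FPKM in the Control libraries, against 10.18, 10.12 and 10.98 in the siTEAD4 libraries, and Control 2 was the nearest to the siTEAD4 libraries.

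Among 16 tested genes of the amino acid and growth factor inputs of mTORC1, on which SESN2 and DDIT4 act, 2 rose and 0 fell by limma (4 and 1 at an unadjusted p under 0.05). These are 12.5% and 0%, below the 26.1% and 18.8% of all genes tested. The genes that rose were SEH1L, a nuclear pore and GATOR2 subunit (0.48, adjusted p = 0.00476), and RRAGA, a Rag GTPase (0.41, adjusted p = 0.00781). The median log2 fold change of the 16 was 0.10, that of all genes tested 0.09. After removal of the trends with length and GC content 5 rose. Without Control 1 the counts were 4 higher and 1 lower, without Control 2 they were 4 higher, and after rescaling to one median or TMM-like scaling 1 fell. All genes called higher numbered 3736 of 11156 with the trends removed, 3432 of 11411 without Control 1 and 4034 without Control 2. All genes called lower numbered 2431 without Control 1, 2455 after rescaling to one median and 2538 with TMM-like scaling.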
